A study of Mus musculus with 46 samples.

Results

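The alpha-actinin family of the mouse has 4 genes, Actn1, Actn2, Actn3 and Actn4, and their RNA levels were followed across 8 groups of skeletal muscle samples. The members were chosen by name, through the Ensembl identifiers listed in both count tables: ENSMUSG00000015143 for Actn1, ENSMUSG00000052374 for Actn2, ENSMUSG00000006457 for Actn3 and ENSMUSG00000054808 for Actn4. They are 4 of the 17859 genes listed in either table, 4 of 17514 in the gastrocnemius table and 4 of 16987 in the spinalis table. All 4 had at least 0.5 CPM (counts on a gene per 1e+06 counts of the library) in at least 2 libraries of each table, a filter that removed 0 of the listed genes.

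Alpha-actinins are rod-shaped proteins that pair in opposite orientation and tie actin filaments together. In striated muscle the products of Actn2 and Actn3 sit at the Z-disc, where they anchor the thin filaments of neighbouring sarcomeres; Actn2 is made in all fibre types and in the heart, and Actn3 mainly in fast glycolytic fibres. Actn1 and Actn4 encode the non-muscle forms, which hold actin bundles at adhesions and along stress fibres in most cell types.

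RNA of muscle tissue from C57BL6 mice, wild type (WT) or knockout for Actn3 (KO), was sequenced in 2 experiments. In the first, males were orchidectomized (ORX, removal of the testes, the main source of androgen) or sham operated when 8 to 10 weeks old, and the gastrocnemius was taken 12 weeks later from WT mice, 6 after sham surgery (WT-sham) and 6 after ORX (WT-ORX), and from KO mice, 6 after sham surgery (KO-sham) and 5 after ORX (KO-ORX). In the second, females aged 4 to 5 weeks received silastic tubing, either empty or filled with 10 mg of dihydrotestosterone (DHT, a potent androgen), and the spinalis was taken after 6 weeks from WT mice, 5 with empty implants (WT-empty) and 6 with DHT (WT-DHT), and from KO mice, 5 with empty implants (KO-empty) and 6 with DHT (KO-DHT). The comparisons ask whether the other alpha-actinins differ where Actn3 is lost, and whether loss or gain of androgen changes the family in each genotype.

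Muscle, sex, age and duration all differ between the experiments, and their tables were normalized separately, so levels were compared within an experiment. The labels describe 46 samples, and 45 have a column of counts, since a KO-ORX sample has none. The labels give the genotype as KO without naming the deleted part of the gene. Total counts (M, 1e+06 counts) were 43.4 to 50.3 M per WT-sham library (median 47.1), 39.9 to 55.4 M per WT-ORX library (median 45.6), 29.5 to 37.5 M per KO-sham library (median 34.3) and 26.7 to 48.5 M per KO-ORX library (median 41.6). In the spinalis they were 37.3 to 51.2 M (median 47.0) for WT-empty, 34.8 to 53.9 M (median 52.0) for WT-DHT, 42.5 to 47.8 M (median 44.1) for KO-empty and 34.9 to 51.7 M (median 44.2) for KO-DHT. All 6 KO-sham libraries had lower totals than any WT-sham library, and the part of depth in the differences between these groups was not tested. As a check of the tissue, the muscle fibre markers Ckm, Acta1, Ttn and Mb summed to group means between 123204 CPM (KO-ORX) and 136678 CPM (KO-sham) in gastrocnemius, and between 134609 CPM (KO-DHT) and 179109 CPM (WT-empty) in spinalis.

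Actn3, the gene targeted in the KO and the fast-fibre member of the family, separated the genotypes in every library. Its counts were 271459 to 344665 in the 6 WT-sham libraries (median 306375) and 334134 to 522718 in the 6 WT-ORX libraries (median 413481). In the KO gastrocnemius they were 1301 to 1653 in the 6 KO-sham libraries (median 1478), and 1051, 1264, 2382, 2702 and 1966 in the 5 KO-ORX libraries. The lowest WT count of that muscle was thus far above the highest KO count. In the spinalis the 5 WT-empty libraries had 357573, 453385, 403003, 450463 and 518011 counts, and the 6 WT-DHT libraries 222975 to 393368 (median 349404). The 5 KO-empty libraries had 3158, 3851, 3913, 2643 and 2659 counts, and the 6 KO-DHT libraries 2133 to 3407 (median 3305). No library went against its genotype label, and none of the 8 groups overlapped with a group of the other genotype of the same experiment.

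Relative to WT, the log2 fold change of Actn3 in KO was -7.18 ± 0.12 (SE) in sham (n = 6 and 6; adjusted p = 2.7e-25, edgeR) and -7.61 ± 0.13 in ORX gastrocnemius (n = 6 and 5; adjusted p = 8.3e-25). In the spinalis it was -7.12 ± 0.12 with empty implants (n = 5 and 5; adjusted p = 8.5e-23) and -6.71 ± 0.11 with DHT (n = 6 and 6; adjusted p = 2.6e-23). Here and below, SE is the standard error and the adjusted p comes from edgeR's quasi-likelihood F test, adjusted by the method of Benjamini and Hochberg for the number of genes in the table. A gene passed the test at an adjusted p of at most 0.01 for effects of treatment or genotype and under 0.05 for an interaction. Comparisons that share a group, such as ORX in KO and KO against WT in sham, share its libraries, and their values are given side by side. Actn3 had the smallest p-value of all genes in each of these 4 comparisons. It was the 1 member of 4 that passed in both KO to WT comparisons of the gastrocnemius, where 5.30% of all genes passed in sham and 3.80% in ORX mice. In the spinalis 2 of 4 members passed, Actn3 and Actn2, beside 4.25% of all genes with empty implants and 11.6% with DHT. The log2 CPM values of WT and KO did not overlap for Actn3 in any of the 4 comparisons, beside 5.10% of all genes in sham, 5.60% in ORX, 6.77% in empty-implant and 10.4% in DHT mice.

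Counts on Actn3 were low in KO muscle but not absent. They amounted to 0.689% of the WT level in sham, 0.512% in ORX, 0.720% in empty-implant and 0.957% in DHT mice. The counts are per gene and do not show which exons the reads came from, and the source of the remaining counts was not tested.

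In WT mice Actn3 moved in opposite directions with loss and gain of androgen. In log2 CPM it lay between 12.55 and 12.78 in the 6 WT-sham libraries (median 12.72) and between 12.93 and 13.23 in the 6 WT-ORX libraries (median 13.13). All 6 WT-ORX libraries lay above all 6 WT-sham libraries; 6.04% of all genes had no overlap between these groups. Actn3 rose by a factor of 1.34 with ORX (log2 0.42 ± 0.088 SE, 95% interval 0.24 to 0.60, adjusted p = 0.002, edgeR) and was the 1 member of 4 that passed, beside 5.45% of all genes.

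In the spinalis Actn3 was at 13.23, 13.26, 13.28, 13.07 and 13.34 log2 CPM in the 5 WT-empty libraries, and between 12.59 and 12.91 (median 12.83) in the 6 WT-DHT libraries. All 6 WT-DHT libraries lay below all 5 WT-empty libraries, as was the case, in either direction, for 11.3% of all genes. With DHT Actn3 fell to 73.5% of its level with empty implants (log2 -0.44 ± 0.09 SE, 95% interval -0.63 to -0.26, adjusted p = 0.00081, edgeR). It was again the 1 member of 4 that passed, in a comparison where 11.3% of all genes passed. DESeq2, limma-voom and the other alternatives all called both WT effects in the same direction. Markers of the tissue also moved with DHT in WT. The muscle fibre markers summed to 179109 CPM in WT-empty and 151672 CPM in WT-DHT, and the 5 smooth muscle and pericyte markers to 425 and 550.2 CPM. Of single markers Rgs5 rose by 0.45 on the log2 scale (adjusted p = 5.4e-05, edgeR), the endothelial Tie1 by 0.45 and Pecam1 by 0.33, the fibroblast gene Dcn by 0.54 and the fibre gene Mb by 0.79, while the fibroblast gene Pdgfra fell by 0.44. These were 1 of 5 smooth muscle and pericyte markers, 2 of 6 endothelial and 1 of 4 fibre markers. Of 5 fibroblast markers 1 passed as higher and 1 as lower, and 11.3% of all genes passed. With ORX in WT the same sums went from 126988 to 130697 CPM and from 642 to 629.5 CPM. Of 5 fibroblast markers Lum (0.59) passed as higher and Pdgfra (-0.23) as lower. Of 4 fibre markers Mb (-0.50) passed, and of 4 macrophage and leukocyte markers Csf1r (-0.31). The log2 values of these last 4 ran up to 0.48 with a median of 0.09. Their sum was 60.4 CPM in WT-sham and 59.2 CPM in WT-ORX. Over all genes 5.45% passed for ORX in WT. The part of the mix of cells in the Actn3 values was not tested.

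In KO mice the remaining Actn3 counts did not move with androgen beyond their spread. The 6 KO-sham libraries lay between 5.16 and 5.78 log2 CPM (median 5.54), and the 5 KO-ORX libraries were at 5.10, 5.50, 5.63, 5.73 and 5.47. The groups overlapped, and the log2 fold change was -0.01 (95% interval -0.20 to 0.19, adjusted p = 0.98, edgeR). In the spinalis the 5 KO-empty libraries were at 6.08, 6.38, 6.29, 5.82 and 5.96 log2 CPM, and the 6 KO-DHT libraries lay between 5.94 and 6.28 (median 6.06). These groups overlapped as well, with a log2 fold change of -0.03 (95% interval -0.22 to 0.15, adjusted p = 0.87, edgeR). No treatment effect in KO separated the groups of any of the 4 members, beside 5.34% of all genes for ORX and 6.08% for DHT.

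The effects on Actn3 in WT are not shown to differ from those in KO. The difference of the effects (KO minus WT) was -0.43 ± 0.13 (SE) for ORX, with an unadjusted p of 0.0029 by edgeR and an adjusted p of 0.22, and 0.41 ± 0.13 for DHT, with an unadjusted p of 0.0038 and an adjusted p of 0.085. By edgeR 0 of 4 members passed for the interaction with ORX, where 0.0228% of all genes passed, and 1 of 4 had an unadjusted p under 0.05, beside 1683 of 17514 genes; DESeq2 and limma-voom also called 0. For the interaction with DHT edgeR called 0 of 4 beside 3.24% of all genes, and 1 of 4 had an unadjusted p under 0.05, beside 2564 of 16987 genes. DESeq2 called Actn3 there (adjusted p = 0.036), edgeR with library-size scaling did so too (adjusted p = 0.018), as did edgeR without the KO-empty library 33KR (adjusted p = 0.034), and limma-voom did not (adjusted p = 0.06). Over the 5 alternatives to the fit the adjusted p lay between 0.018 and 0.096, and over the libraries left out 1 at a time between 0.034 and 0.17.

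**Figure D1:**
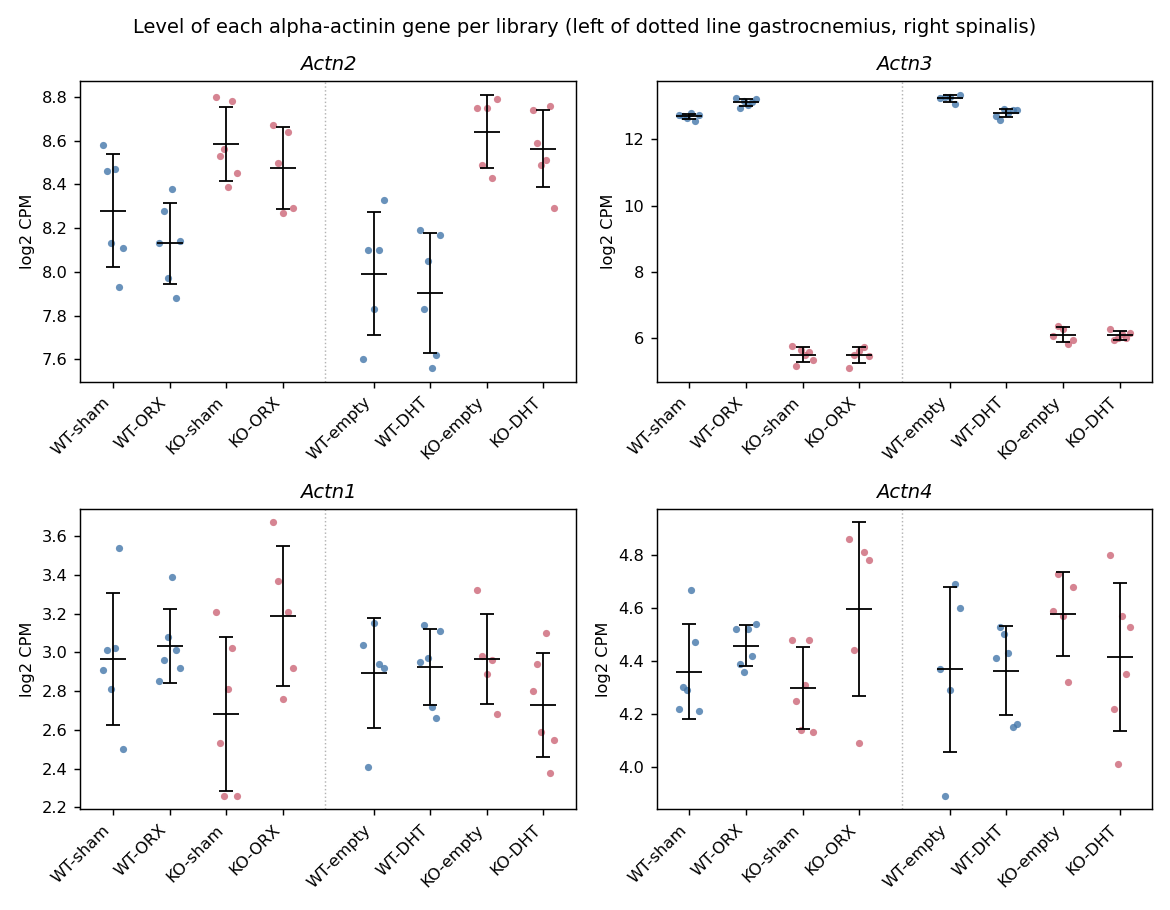
Level of each alpha-actinin gene in log2 CPM (vertical axis) in the 8 groups (horizontal axis), with a point per library, a horizontal bar at the group mean and error bars of 1 SD; the dotted line parts gastrocnemius from spinalis, which were normalized separately. Actn3 lies at 12.55 or above in every WT library and at 6.38 or below in every KO library, and Actn2 lies at 8.33 or below in the WT-empty libraries and at 8.43 or above in the KO-empty libraries.

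Actn2, the sarcomeric member made in all muscle fibres, was higher in KO than in WT spinalis. It was at 7.60, 8.10, 7.83, 8.10 and 8.33 log2 CPM in the 5 WT-empty libraries and at 8.75, 8.49, 8.75, 8.43 and 8.79 in the 5 KO-empty libraries. With DHT it lay between 7.56 and 8.19 in the 6 WT libraries (median 7.94) and between 8.29 and 8.76 in the 6 KO libraries (median 8.55). The genotypes did not overlap under either implant: all 5 KO-empty and all 6 KO-DHT libraries lay above every WT library of the same implant. Of all genes, 6.77% with empty implants and 10.4% with DHT had no overlap, in either direction. Actn2 rose in KO by a factor of 1.56 with empty implants (log2 0.64 ± 0.13 SE, 95% interval 0.37 to 0.91, adjusted p = 0.0031, edgeR). With DHT it rose by a factor of 1.57 (log2 0.65 ± 0.12 SE, 95% interval 0.40 to 0.90, adjusted p = 0.00036). The call with empty implants is the less firm: it was lost when only the WT-empty and KO-empty groups were fitted (log2 0.64, adjusted p of 0.01 after rounding) and without WT-empty library 14KR or 7KR (adjusted p up to 0.011), while over the other alternatives the adjusted p lay between 9.3e-05 and 0.0031. The muscle fibre markers summed to 179109 CPM in WT-empty and 150482 in KO-empty, and to 151672 in WT-DHT and 134609 in KO-DHT. With DHT 1 of 4 passed, Acta1, lower in KO by 0.51 (adjusted p = 0.00033, edgeR), beside 11.6% of all genes. With empty implants edgeR called 0 of 4 beside 4.25% of all genes, with 2 at an unadjusted p under 0.05 (beside 3969 of 16987 genes). The part of the mix of cells in the Actn2 values was not tested.

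In gastrocnemius the same comparison gave smaller values that missed the threshold. Actn2 lay between 7.93 and 8.58 log2 CPM in the 6 WT-sham libraries (median 8.30) and between 8.39 and 8.80 in the 6 KO-sham libraries (median 8.55). After ORX it lay between 7.88 and 8.38 in the 6 WT libraries (median 8.14) and was at 8.67, 8.50, 8.27, 8.64 and 8.29 in the 5 KO libraries. The genotypes overlapped: 2 of 6 KO-sham libraries and 3 of 5 KO-ORX libraries lay above all their WT counterparts, while all 6 and all 5 lay above the WT median. The log2 fold change of KO to WT was 0.29 ± 0.1 (SE) in sham (95% interval 0.08 to 0.51, adjusted p = 0.076, edgeR) and 0.34 ± 0.11 in ORX mice (95% interval 0.11 to 0.57, adjusted p = 0.059). Of the 4 fibre markers, Acta1 was lower in KO by 0.37 in sham mice, and Acta1 (-0.50) and Ckm (-0.37) were lower in ORX mice. Of the 4 macrophage and leukocyte markers, Csf1r was lower in KO-sham by 0.29. These passed by edgeR beside 5.30% of all genes in sham and 3.80% in ORX mice. The part of the mix of cells in these values was not tested. The difference between the muscles was not tested, since muscle, sex and age changed together.

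Androgen did not separate the groups for Actn2 in either genotype. With ORX the log2 fold change of Actn2 was -0.16 in WT (95% interval -0.38 to 0.06, adjusted p = 0.4, edgeR) and -0.11 in KO (95% interval -0.34 to 0.12, adjusted p = 0.59). With DHT it was -0.09 in WT (95% interval -0.35 to 0.17, adjusted p = 0.71) and -0.08 in KO (95% interval -0.34 to 0.18, adjusted p = 0.76). The interactions were 0.05 for ORX (95% interval -0.26 to 0.36) and 0.01 for DHT (95% interval -0.36 to 0.38). Actn2 thus gave negative values in all 4 treatment comparisons, each within the spread between mice.

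Levels of Actn2 and Actn3 were set side by side as CPM per kilobase of exon, since the genes differ in length (3795 and 2901 bases of exon in the GENCODE M21 annotation). On this scale Actn3 was 27.5 times as abundant as Actn2 in WT-sham, 41.1 times in WT-ORX, 49 times in WT-empty and 38.2 times in WT-DHT muscle. In KO muscle the order turned, and Actn2 was 6.46 times as abundant as the remaining Actn3 counts in KO-sham, 6.03 times in KO-ORX, 4.42 times in KO-empty and 4.28 times in KO-DHT. The ranges of the libraries did not overlap between the 2 genes in any group.

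The sum of the sarcomeric pair, per kilobase, was far lower in KO than in WT muscle. It was 2366 ± 142 CPM per kilobase (SD, n = 6) in WT-sham and 118 ± 13.7 (SD, n = 6) in KO-sham, and 3131 ± 231 (SD, n = 6) in WT-ORX and 109.8 ± 11.6 (SD, n = 5) in KO-ORX. In spinalis it was 3401 ± 229 (SD, n = 5) in WT-empty and 129.9 ± 12.7 (SD, n = 5) in KO-empty, and 2513 ± 209 (SD, n = 6) in WT-DHT and 124 ± 12.1 (SD, n = 6) in KO-DHT. The KO sums were 4.97%, 3.51%, 3.82% and 4.92% of the WT means in sham, ORX, empty-implant and DHT mice.

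The gain of Actn2 in KO was small beside the loss of Actn3 on the scale of RNA per kilobase. The mean gain was 18.7 CPM per kilobase against a loss of 2267 in sham, or 0.823% of the loss (SD 0.533, n = 6), and 19.8 against 3041 in ORX mice, or 0.652% (SD 0.398, n = 5). In spinalis it was 37.9 against 3309 with empty implants, or 1.15% (SD 0.362, n = 5), and 36.2 against 2425 with DHT, or 1.49% (SD 0.49, n = 6). In single KO libraries the gain was between 0.227% and 2.06% of the loss. These are ratios of RNA and say nothing of the amounts of protein.

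Actn3 made up nearly all of the summed level in WT muscle. Its share was 95.9 to 97.0% in the 6 WT-sham libraries (median 96.5) and 97.0 to 98.0% in the 6 WT-ORX libraries (median 97.8). With empty implants the 5 WT libraries had 97.6 to 98.5%, and with DHT the 6 WT libraries had 96.8 to 98.1% (median 97.3). In KO libraries the share was 11.2 to 14.9% in sham (median 13.5), 9.93 to 17.4% in ORX, 15.5 to 23.2% in empty-implant and 16.2 to 23.1% in DHT mice (median 19.0).

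**Figure D2:**
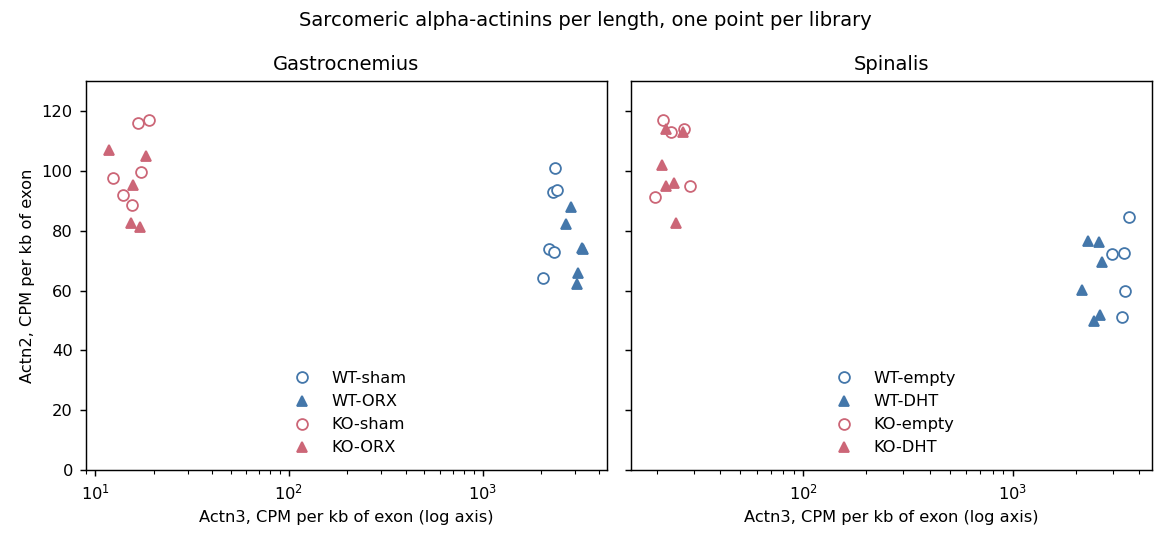
Actn2 (vertical axis, CPM per kilobase of exon) against Actn3 (horizontal log axis, CPM per kilobase of exon), with a point per library, open circles for controls and filled triangles for ORX or DHT, WT in blue and KO in red. WT libraries lie between 2060.3 and 3569 CPM per kilobase of Actn3 and KO libraries between 11.8 and 28.7.

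Actn1, the non-muscle member found at adhesions and stress fibres of most cells, had the lowest level of the family per kilobase of exon and passed in none of the 10 comparisons by edgeR. It lay between 2.50 and 3.54 log2 CPM in the 6 WT-sham libraries (median 2.96) and between 2.85 and 3.39 in the 6 WT-ORX libraries (median 2.99). In KO gastrocnemius it lay between 2.26 and 3.21 in the 6 sham libraries (median 2.67) and was at 3.67, 3.37, 2.76, 3.21 and 2.92 in the 5 ORX libraries. The KO groups overlapped, although 3 of 5 KO-ORX libraries lay above all KO-sham libraries. With ORX the log2 fold change of Actn1 was 0.49 ± 0.18 (SE) in KO (95% interval 0.12 to 0.87, adjusted p = 0.081, edgeR) and 0.05 ± 0.17 in WT (adjusted p = 0.92), with a difference of 0.45 ± 0.25 (adjusted p = 0.59).

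In spinalis Actn1 was at 3.04, 2.41, 3.15, 2.94 and 2.92 log2 CPM in the 5 WT-empty libraries and between 2.66 and 3.14 (median 2.96) in the 6 WT-DHT libraries. The 5 KO-empty libraries were at 3.32, 2.98, 2.89, 2.96 and 2.68, and the 6 KO-DHT libraries lay between 2.38 and 3.10 (median 2.69). All 4 groups overlapped. With DHT its log2 fold change was 0.02 in WT (95% interval -0.27 to 0.32) and -0.24 in KO (95% interval -0.53 to 0.05, adjusted p = 0.31, edgeR). Against WT, Actn1 in KO gave -0.28 in sham, 0.17 in ORX, 0.07 in empty-implant and -0.19 in DHT mice on the log2 scale, with adjusted p-values between 0.36 and 0.83 by edgeR. The 95% intervals for KO against WT in spinalis ran from -0.23 to 0.37 with empty implants and from -0.47 to 0.09 with DHT.

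Actn4, the other non-muscle member, which bundles actin in motile and contractile cells, gave a like picture. It lay between 4.21 and 4.67 log2 CPM in the 6 WT-sham libraries (median 4.30) and between 4.36 and 4.54 in the 6 WT-ORX libraries (median 4.47). In KO it lay between 4.13 and 4.48 in the 6 sham libraries (median 4.28) and was at 4.86, 4.44, 4.09, 4.81 and 4.78 in the 5 ORX libraries. Of the 5 KO-ORX libraries 3 lay above all KO-sham libraries and 1, replicate 3, below them all. In KO the log2 fold change of Actn4 with ORX was 0.32 ± 0.11 (SE; 95% interval 0.10 to 0.54, adjusted p = 0.057, edgeR), and without that library it was 0.43 and passed (adjusted p = 0.0027; 0.0027 to 0.17 over the libraries left out 1 at a time). In WT it was 0.09 (adjusted p = 0.67), and the difference between the genotypes was 0.23 ± 0.15 (adjusted p = 0.65). For ORX in KO edgeR thus called 0 of 4 members beside 5.57% of all genes, while 2 of 4, Actn1 and Actn4, had an unadjusted p under 0.05, as did 4288 of 17514 genes; DESeq2 and limma-voom also called 0.

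In spinalis Actn4 was at 4.37, 3.89, 4.29, 4.69 and 4.60 log2 CPM in the 5 WT-empty libraries and between 4.15 and 4.53 (median 4.42) in the 6 WT-DHT libraries. The 5 KO-empty libraries were at 4.59, 4.73, 4.57, 4.32 and 4.68, and the 6 KO-DHT libraries lay between 4.01 and 4.80 (median 4.44). The groups overlapped. Its log2 fold change with DHT was -0.02 in WT (95% interval -0.29 to 0.25) and -0.15 in KO (95% interval -0.42 to 0.12, adjusted p = 0.53, edgeR). Against WT, Actn4 in KO gave -0.06 in sham, 0.16 in ORX, 0.19 in empty-implant and 0.06 in DHT mice, with adjusted p-values between 0.44 and 0.80. For DHT in KO edgeR called 0 of 4 members beside 4.62% of all genes, and 0 of 4 had an unadjusted p under 0.05, beside 4278 of 16987 genes; DESeq2 and limma-voom also called 0.

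Counting error was small beside the spread between mice for the sarcomeric genes and less so for Actn1 and Actn4. The lowest count of Actn1 in any library was 142, whose counting error is 8.39%, while its CPM varied by 13.5 to 27.7% (coefficient of variation) within groups. For Actn4 the lowest count was 521, with a counting error of 4.38% and a variation of 5.35 to 20.8%. For Actn2 the lowest count was 5773, with a counting error of 1.32% and a variation of 11.3 to 18.9%. These errors cover counting alone and not the handling of the samples.

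**Figure D3:**
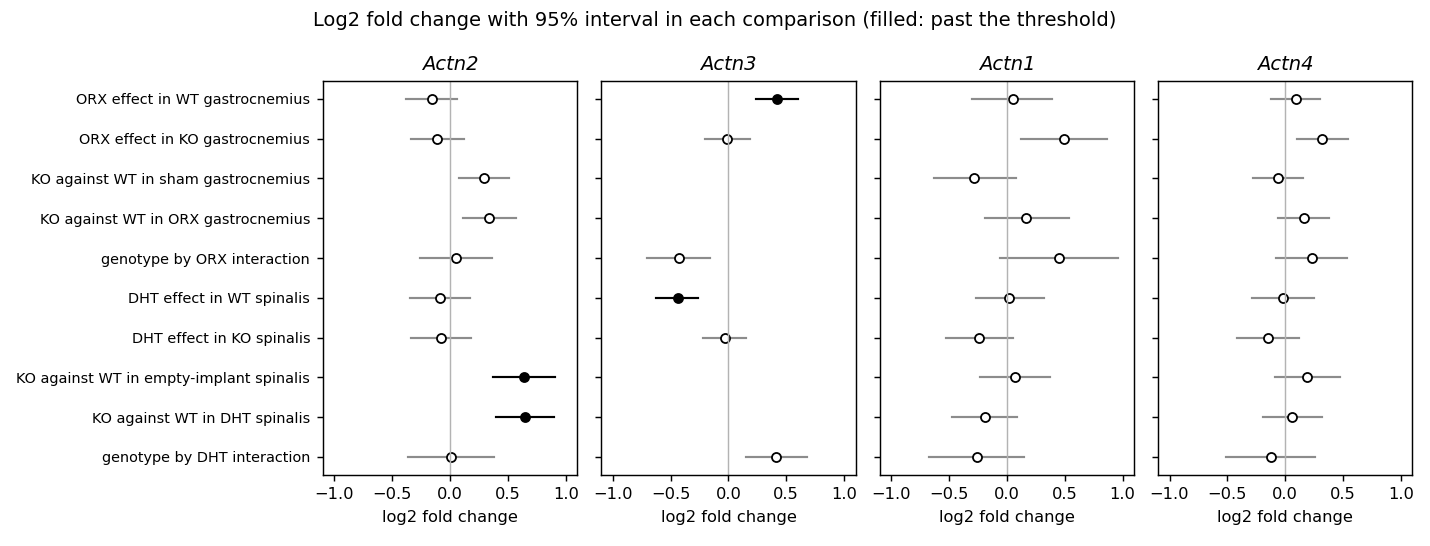
Log2 fold change (horizontal axis) of each alpha-actinin gene in the 10 comparisons (vertical axis), with lines for the 95% interval and filled points for values past the threshold. Actn3 shows 0.42 with ORX and -0.44 with DHT in WT, Actn2 shows 0.64 and 0.65 for KO against WT in spinalis, and the KO to WT values of Actn3, all below -6, are left off its panel.

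Compared per kilobase of exon, the order of the family was Actn3, Actn2, Actn4 and Actn1 in all 4 WT groups, and Actn2, Actn3, Actn4 and Actn1 in all 4 KO groups. Neighbours in this order did not overlap between libraries of a group. Actn2 was 19 to 31.6 times as abundant as Actn4 per kilobase, and Actn4 was 2.34 to 2.92 times as abundant as Actn1. These ratios depend on the length used: of the exon bases, 2682 of 3795 are coding in Actn2, 2676 of 5533 in Actn1 and 2796 of 6127 in Actn4, so per coding base Actn4 and Actn1 would lie closer to Actn2. The non-muscle pair made up 0.14 to 0.203% of the summed family level per kilobase in WT groups and 3.62 to 4.93% in KO groups. The total that this share is taken of holds Actn3, and neither Actn1 nor Actn4 passed a test of KO against WT by edgeR.

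Within groups the 2 non-muscle members varied together more than the sarcomeric pair. Pearson's r of the deviations from group means was 0.60 for Actn1 and Actn4 over 23 gastrocnemius libraries (Spearman's rho 0.59) and 0.34 over 22 spinalis libraries (rho 0.31). For Actn2 and Actn3 it was 0.13 (rho 0.16) and 0.03 (rho 0.09). In WT libraries alone r in gastrocnemius and spinalis was 0.45 and 0.53 for Actn1 and Actn4, and 0.15 and 0.04 for Actn2 and Actn3. In KO libraries r was 0.67 and 0.15 for Actn1 and Actn4. For Actn2 and the remaining Actn3 counts it was 0.14 and 0.03 there. These are descriptions, and all genes of a library share its depth and its mix of cells.

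The genes whose deviations were most like those of a member in both muscles were read from 7820 or more genes with a mean of at least 3 log2 CPM. For Actn2 they were Flnc (r 0.66 in gastrocnemius, 0.66 in spinalis), a filamin of the Z-disc, Fhl1 (0.65 and 0.72), a LIM-domain protein of muscle, Hspb7 (0.70 and 0.62), a small heat shock protein, Qk (0.58 and 0.70), an RNA-binding protein, and Ankrd2 (0.58 and 0.77), a stretch-responsive protein. Fhl1 also rose in KO spinalis, by 0.68 ± 0.13 (SE) on the log2 scale with empty implants (adjusted p = 0.0017, edgeR) and by 0.66 ± 0.12 with DHT (adjusted p = 0.0003). Flnc gave 0.42 ± 0.12 (adjusted p = 0.033) and -0.05 ± 0.11 (adjusted p = 0.83) in the same comparisons, and Qk fell with ORX in WT by 0.24 (adjusted p = 0.0019).

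For Actn3 the most alike genes were Gm5113 (0.61 and 0.64), Tmem94 (0.69 and 0.61), Hhatl (0.68 and 0.60), Szrd1 (0.59 and 0.62) and Ache (0.76 and 0.59), the acetylcholinesterase of the neuromuscular junction. The ranking covers WT and KO libraries together, so it rests in part on the remaining Actn3 counts in KO. A ranking in WT libraries alone was not made. Hhatl fell with DHT in WT by 0.36 on the log2 scale (SE 0.092, adjusted p = 0.0073, edgeR), as Actn3 did, and gave 0.16 ± 0.058 with ORX (adjusted p = 0.084). In KO against WT these genes went both ways. Tmem94 fell by 0.39 with DHT (adjusted p = 0.007) and by 0.31 in ORX mice (adjusted p = 0.0038). Gm5113 rose by 0.56 with empty implants (adjusted p = 0.00016) and 0.44 with DHT (adjusted p = 0.00021), and with DHT Hhatl rose by 0.52 (adjusted p = 0.00013) and Ache by 0.99 (adjusted p = 1.6e-07).

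For Actn1 the most alike were Flna (0.76 and 0.71), the non-muscle filamin, Ltbp1 (0.74 and 0.66), a matrix protein that binds latent TGF-beta, Mfsd6 (0.76 and 0.65), Fat1 (0.79 and 0.65), a protocadherin, and Creb3l2 (0.61 and 0.62). For Actn4 they were Jcad (0.79 and 0.78), a protein of endothelial junctions, Ltbp4 (0.85 and 0.77), a relative of Ltbp1, Ehd2 (0.75 and 0.90), a protein of caveolae, Nisch (0.73 and 0.76) and Il17rd (0.73 and 0.78). Of these, Fat1 (0.60), Creb3l2 (0.58), Jcad (0.30) and Ltbp4 (0.96) rose with ORX in KO on the log2 scale, with adjusted p-values of 0.0067, 0.0026, 0.0068 and 4.1e-06 by edgeR. The other genes named for Actn1 and Actn4 did not pass there, in a comparison where 5.57% of all genes passed. With DHT Ltbp1 rose by 0.40 in WT and 0.36 in KO, and Ltbp4 fell by 0.55 in KO and gave -0.49 in WT (adjusted p of 0.01 after rounding, just missing the threshold), with a difference of -0.06 (adjusted p = 0.93).

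Within groups Actn1 moved with fibroblast markers in both muscles, and Actn4 with endothelial markers in spinalis. In bulk muscle, fewer cells of a type and less RNA per cell cannot be told apart. The 5 fibroblast markers Pdgfra, Col1a1, Col3a1, Dcn and Lum were all measured, and their summed level correlated with Actn1 within groups with r 0.72 over 23 gastrocnemius and 0.59 over 22 spinalis libraries. That sum was 1619 ± 184 CPM (SD, n = 6; most abundant gene Dcn) in KO-sham and 2139 ± 779 CPM (SD, n = 5) in KO-ORX muscle, with single KO-ORX libraries from 1431 to 3349 CPM. In WT it was 1944 ± 287 CPM in sham and 1782 ± 173 CPM after ORX. For ORX in KO 1 of the 5 passed, Lum (log2 0.57, adjusted p = 0.0002, edgeR), beside 5.57% of all genes. The log2 values of the 5 ran from -0.09 to 1.89. Of the 4 muscle fibre markers 1 passed in the same comparison, Mb, which fell by 0.56 (adjusted p = 0.0055, edgeR). The part of fibroblast RNA in the Actn1 values was not tested.

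For Actn4 the closest marker sum in spinalis was that of the 6 endothelial genes Pecam1, Cdh5, Kdr, Tek, Emcn and Tie1, with r 0.66 over 22 libraries, beside 0.13 over 23 libraries in gastrocnemius. That sum was 187 ± 21.5 CPM (SD, n = 5; most abundant gene Pecam1) in WT-empty and 239.8 ± 19.9 (SD, n = 6) in WT-DHT, and 209 ± 19.3 (SD, n = 5) in KO-empty and 247 ± 30 (SD, n = 6) in KO-DHT. In gastrocnemius its means lay between 234 and 260.2 CPM. The part of endothelial RNA in the Actn4 values was not tested. The 3 satellite cell markers Pax7, Calcr and Myf5 all rose in KO-DHT against WT-DHT, by 1.24, 1.04 and 0.89 on the log2 scale, from a summed level of 3.99 CPM to 8.18 CPM, in a comparison where 11.6% of all genes passed. With empty implants the sum was 5.76 CPM in WT and 8.57 CPM in KO, and edgeR called 0 of 3 beside 4.25% of all genes, with 1 at an unadjusted p under 0.05 (beside 3969 of 16987 genes), 1 by DESeq2 and 0 by limma-voom. In gastrocnemius it was 3.7 CPM in WT-sham and 5.92 CPM in KO-sham, where Myf5 rose by 0.75 (adjusted p = 0.0053), and 5.22 CPM in WT-ORX and 6.93 CPM in KO-ORX. The r of the sum with Actn2 in spinalis was -0.25.

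Other marker sums had correlations of either sign with the sarcomeric members. They were taken over WT and KO libraries together, and in KO those with Actn3 rest on its remaining counts. The 4 macrophage and leukocyte markers (most abundant gene Csf1r) had r -0.59 and -0.53 with Actn3 over 23 gastrocnemius and 22 spinalis libraries, with group means between 52.1 and 67.3 CPM, and the fibroblast markers had -0.51 and -0.12. The 3 adipocyte markers (most abundant gene Adipoq) had r -0.09 and -0.37 with Actn2, and the 5 smooth muscle and pericyte markers (most abundant gene Rgs5) 0.40 and 0.28. The muscle fibre markers had 0.55 and 0.38 with Actn2. A further list of 3 cell-type markers, not named here, had r 0.29 in gastrocnemius and -0.57 in spinalis with Actn2, the latter further from 0 than the adipocyte value. The part of these cells in the values was not tested.

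Slow fibre genes moved with Actn2 within groups, and fast fibre genes with Actn3, over WT and KO libraries together. In KO libraries the Actn3 values are those of the remaining counts, and the r in WT libraries alone was not taken. The summed level of 11 slow fibre genes (Mybpc1 the most abundant) had r 0.64 and 0.53 with Actn2, and -0.24 and -0.32 with Actn3, over 23 gastrocnemius and 22 spinalis libraries. The summed level of 12 fast fibre genes (Myh4 the most abundant) had r 0.44 and 0.62 with Actn3, and 0.36 and 0.17 with Actn2. The slow sum was 2069 ± 680.0 CPM in WT-empty and 1438 ± 526 in WT-DHT, and 2952 ± 571 in KO-empty and 1471 ± 411 in KO-DHT. Actn2 was higher in KO than in WT with DHT, where the slow sums were 1471 and 1438 CPM, and also with empty implants, where they were 2952 and 2069 CPM. The part of fibre type in the Actn2 values was not tested.

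Of the 11 slow fibre genes, 1 fell with DHT in WT (Casq2, the slow calsequestrin, log2 -0.70, adjusted p = 0.003, edgeR) and 2 in KO (Casq2, -1.08, and Tpm3, slow tropomyosin, -1.47), beside 11.3% and 4.62% of all genes. At an unadjusted p under 0.05 there were 9 of 11 in WT and 11 of 11 in KO, beside 5070 and 4278 of all 16987 genes; DESeq2 called 2 and 3, and limma-voom 1 and 4. The list median was -0.97 and -1.47, beside -0.01 over all genes in both genotypes. Between KO and WT edgeR called 0 of 11 in all 4 comparisons, beside 5.30%, 3.80%, 4.25% and 11.6% of all genes, with medians of 0.21, 0.18, 0.53 and 0.05 in sham, ORX, empty-implant and DHT mice. At an unadjusted p under 0.05 there were 1, 2, 2 and 0 of 11, beside 4082 and 3313 of 17514 and 3969 and 5034 of 16987 genes, and DESeq2 and limma-voom called 0. With ORX Casq2 rose in both genotypes, by 0.43 in WT and 0.45 in KO, 1 of 11 in each beside 5.45% and 5.57% of all genes. The list medians were 0.30 and 0.23 beside 0.01 over all genes. The summed level of the list was 2207 CPM in WT-sham and 2174 in WT-ORX, and 2507 in KO-sham and 2508 in KO-ORX.

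Among the 12 fast fibre genes, Mylpf (0.44), a fast regulatory light chain, and Pvalb (0.29), parvalbumin, rose with ORX in WT beside Actn3, and Myh1, a fast myosin heavy chain, fell by 0.61 on the log2 scale. In KO 3 fell with ORX, Tnni2 (-0.26), Myh1 (-0.61) and Tnnt3 (-0.20). With DHT Myl1 rose by 0.29 in both genotypes, Tnni2 (0.36) and Tnnc2 (0.69) rose in KO, and Atp2a1, the fast calcium pump, fell by 0.37 in WT. In KO against WT, Tnnt3 fell by 0.41 and Myl1 by 0.30 in ORX mice, and Tnnc2 by 0.71 and Tnnt3 by 0.37 with empty implants. These are 3 of 12 genes for ORX in each genotype, 2 and 3 for DHT in WT and KO, and 2 each for KO against WT in ORX and empty-implant mice, beside 5.45%, 5.57%, 11.3%, 4.62%, 3.80% and 4.25% of all genes. For KO against WT in sham and DHT mice edgeR called 0 of 12, beside 5.30% and 11.6% of all genes, with 5 of 12 at an unadjusted p under 0.05 in each, beside 4082 of 17514 and 5034 of 16987 genes. DESeq2 called 0 and 1 there, and limma-voom 0 in both. The list medians for KO against WT were -0.02, -0.12, -0.20 and -0.10, beside medians of -0.01 or 0.01 over all genes.

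Proteins that bind alpha-actinin or lie beside it at the Z-disc were described as a list of 28 genes, all measured. In KO-sham against WT-sham muscle 4 rose and 1 fell, with a median of 0.08 beside -0.01 over all genes. The 4 were Myot (0.56), which binds alpha-actinin and filamin, Xirp2 (0.33), which binds actin, Myoz3 (0.39), a fast-fibre calsarcin, and Ldb3 (0.30), a PDZ protein of the Z-disc. In ORX mice 3 rose in KO, Xirp2 (0.39), Myoz3 (0.45) and Myot (0.40), and Pdlim7 fell by 0.42. With empty implants Ldb3 rose by 0.32 and Pdlim7 fell by 0.48, 2 of 28, with a median of 0.10. With DHT Myot (0.44), Myoz3 (0.64) and Ldb3 (0.28) rose and Vcl, the adhesion protein vinculin, fell by 0.85, 4 of 28, with a median of 0.03. Over all genes 5.30%, 3.80%, 4.25% and 11.6% passed in these 4 comparisons, so the 4 of 28 with DHT are near the share of all genes. The sham and ORX comparisons share no library, nor do those with empty implants and DHT.

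With androgen loss or gain the same list gave 6 of 28 genes for ORX in WT, 4 higher and 2 lower, with a median of 0.06. Palld, an actin-bundling partner of alpha-actinin, rose by 0.62 ± 0.077 (SE), Pdlim7 by 0.31 and Synpo2l by 0.28, and Pdlim5, a PDZ and LIM protein that binds alpha-actinin, fell by 0.53. In KO Palld rose by 0.52 with ORX, and Pdlim5 (-0.43), Myoz1 (-0.36) and Tcap (-0.38) fell, 4 of 28 with a median of -0.03. With DHT in WT 4 of 28 rose and 0 fell, Vcl (1.02 ± 0.085 SE), Myoz1 (0.41), Tcap (0.64) and Pdlim5 (0.30), and in KO Myoz1 rose by 0.32, 1 of 28. Over all genes 5.45% and 5.57% passed for ORX in WT and KO, and 11.3% and 4.62% for DHT, so the 4 of 28 with DHT in WT are near the share of all genes. Myoz1, Tcap and Pdlim5 were among the genes that fell after ORX in KO and rose with DHT in WT. For the interaction with ORX edgeR called 0 of 28 beside 0.0228% of all genes, with 7 at an unadjusted p under 0.05 beside 1683 of 17514 genes, and DESeq2 and limma-voom called 0.

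Other crosslinkers with the actin-binding domain of the alpha-actinins formed a list of 18 genes, of which 16 were measured (Sptbn4 and Pls1 were not listed). Syne1, the giant nesprin of the nuclear envelope, fell in KO-sham against WT-sham by 0.53, 1 of 16 in that comparison, and Dmd, dystrophin, rose in KO-ORX against WT-ORX by 0.29, also 1 of 16. In KO-DHT against WT-DHT Syne1 (-0.80), Dst (-0.45) and Macf1 (-0.33) fell, 3 of 16, and with empty implants edgeR called 0 of 16, with 3 at an unadjusted p under 0.05 (beside 3969 of 16987 genes) and 0 by DESeq2 or limma-voom. With ORX Syne1 fell by 0.38 in WT, and Clmn rose by 0.61 in KO. With DHT in WT Syne1 rose by 0.70 and Clmn fell by 0.87. The medians of the 10 comparisons lay between -0.12 and 0.15. Over all genes 5.30%, 3.80%, 4.25% and 11.6% passed for KO against WT in sham, ORX, empty-implant and DHT mice.

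Partners of Actn1 and Actn4 at adhesions and stress fibres formed a list of 12 genes, of which 11 were measured (Ilk was not listed). Vasp, which promotes actin polymerization, fell in KO against WT by 0.55 in sham and 0.64 in ORX mice, and Actg1, a cytoplasmic actin, fell in ORX mice by 0.40. Itgb1, the beta1 integrin, fell with ORX in WT by 0.22, rose with DHT in WT by 0.36, and fell in KO-DHT against WT-DHT by 0.30, while Vasp rose with DHT in KO by 0.57. These are 2 of 11 genes for KO against WT in ORX mice and 1 of 11 in each other comparison named. Over all genes 3.80% passed for KO against WT in ORX mice, 5.30% in sham and 11.6% in DHT mice, 5.45% for ORX in WT, and 11.3% and 4.62% for DHT in WT and KO. EdgeR called 0 of 11 for ORX in KO beside 5.57% of all genes, with 2 at an unadjusted p under 0.05 (beside 4288 of 17514 genes) and 0 by DESeq2 and limma-voom. It called 0 of 11 for KO against WT with empty implants beside 4.25% of all genes, with 6 at an unadjusted p under 0.05 (beside 3969 of 16987 genes), 1 by DESeq2 and 0 by limma-voom. The summed level of the list had r 0.50 and 0.51 with Actn1, and 0.62 and 0.39 with Actn4, over 23 gastrocnemius and 22 spinalis libraries. Flna and Zyx stand in this list and also among the crosslinkers or the Z-disc partners, and Ttn stands among both the Z-disc partners and the fibre markers.

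The 4 genes lie on different chromosomes, Actn1 on 12, Actn2 on 13, Actn3 on 19 and Actn4 on 7, and the 3 nearest listed genes on each side of each were read from GENCODE M21. For KO against WT the log2 values of the 6 neighbours of Actn3 lay between -0.05 and 0.34 in sham (lowest adjusted p = 0.011, edgeR), between -0.03 and 0.38 in ORX (lowest adjusted p = 0.08) and between -0.03 and 0.20 in empty-implant mice (lowest adjusted p = 0.35), beside values of -7.12 or below for Actn3. With DHT in WT the neighbours Ctsf, a cathepsin, and Ccs, a copper chaperone, fell by 0.41 and 0.43 on the log2 scale, beside the -0.44 of Actn3. In KO-DHT against WT-DHT Ctsf rose by 0.45 and Bbs1, a gene of the cilium, by 0.74. The gap between Actn3 and Ctsf is 0.3 kb in that annotation.

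Next to Actn2, the 6 neighbours gave log2 values between -0.48 and 0.18 for KO against WT with empty implants (lowest adjusted p = 0.16, edgeR), beside the 0.64 of Actn2. With DHT Lgals8 rose in KO by 0.27, and Mtr, methionine synthase, fell in KO by 0.67 while Actn2 rose. Mtr also rose with DHT in WT by 0.93, as did Gm47322 by 1.15, fell with ORX in WT by 0.47, and gave a difference of the DHT effects of -0.75 (adjusted p = 5.1e-05). Next to Actn1, Dcaf5 fell in KO-sham by 0.30 and in KO-DHT by 0.91 against WT, and rose with DHT in WT by 0.75, with a difference of the DHT effects of -0.64 (adjusted p = 0.00066). It also fell with ORX, by 0.35 in WT and 0.28 in KO. The gene 2310015A10Rik rose with DHT in WT by 0.53 and fell in KO-DHT against WT-DHT by 0.42, while Exd2 rose in KO by 0.48 with empty implants (adjusted p = 0.00047) and by 0.43 with DHT (adjusted p = 0.00014). Next to Actn4, Ech1 rose in KO-DHT against WT-DHT by 0.38 and with DHT in KO by 0.41, where Map4k1 fell by 1.14. Eif3k rose with ORX in WT by 0.24, and Ryr1, the calcium release channel of muscle, rose with ORX in WT by 0.33 and fell in KO-ORX against WT-ORX by 0.39. Of the 6 neighbours per member, 2 each of Actn1, Actn2 and Actn3 and 0 of Actn4 thus passed for DHT in WT, and 3, 2, 2 and 1 for KO against WT with DHT, beside 11.3% and 11.6% of all genes. In every other comparison between 0 and 2 of 6 passed per member, beside 0.0228% to 5.57% of all genes. The 2 of 6 were neighbours of Actn4, for ORX in WT and DHT in KO, beside 5.45% and 4.62% of all genes. Actn4 and Capn12, on opposite strands, share 316 bases of exon; Capn12 was listed in gastrocnemius and gave log2 values of 0.18 and 0.41 with ORX in WT and KO (adjusted p = 0.87 and 0.68, edgeR). The strand setting of the counting is not given, and the part of Capn12 in the counts of Actn4 was not tested.

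How far reads of 1 member could be counted on another was read from the transcripts of GENCODE M21. The coding sequences were 74.8 to 80.5% identical in pairs, with 75.4% for Actn2 and Actn3 and 80.5% for Actn1 and Actn4. No window of 100 bases was shared by any pair, and 2 of 3802 windows of 50 bases of Actn2 were found in Actn3. The longest run shared by Actn2 and Actn3 was 51 bases, and that of Actn1 and Actn4 was 65 bases. The reads were longer than these windows, and the handling of reads that match several genes is not stated.

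To show the bases that tell the members apart in a shared stretch, 99 coding bases around the longest run of the sarcomeric pair are given for all 4. It covers coding bases 997 to 1095 of Actn3, counted from 1 at the start codon, and capitals mark the 22 positions at which the 4 genes are not all the same, while 77 are.
Actn2: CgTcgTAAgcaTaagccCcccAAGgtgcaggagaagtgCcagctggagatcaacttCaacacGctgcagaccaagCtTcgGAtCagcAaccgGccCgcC
Actn3: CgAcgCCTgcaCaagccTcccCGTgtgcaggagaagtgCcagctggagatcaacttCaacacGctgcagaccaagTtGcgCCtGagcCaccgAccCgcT
Actn1: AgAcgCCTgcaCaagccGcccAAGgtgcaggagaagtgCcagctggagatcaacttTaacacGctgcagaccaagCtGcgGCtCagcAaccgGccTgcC
Actn4: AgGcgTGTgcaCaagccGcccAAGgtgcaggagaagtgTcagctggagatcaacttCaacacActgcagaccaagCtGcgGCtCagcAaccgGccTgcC
The window of Actn3 differs from that of Actn2 at 17 bases, from that of Actn1 at 13 and from that of Actn4 at 17.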

How the data were processed

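The authors sequenced stranded total RNA libraries, aligned reads with STAR 2.7.1b and counted them per gene with featureCounts (Subread 2.0.0); the deposited values are raw counts. Columns were matched to labels by group, and by replicate number in gastrocnemius. Genes were matched by Ensembl identifier to GENCODE M21 of GRCm38 (17433 of 17514 and 16920 of 16987), used for names, lengths and neighbours; the labels name GRCm39. The 4 groups of an experiment were fitted together with edgeR 4.0.16 in R 4.3.3 (TMM, a mean per group, quasi-likelihood F tests). Log2 CPM used a prior count of 2. Named genes are the members, at most 4 called genes per list and comparison by p-value, the 5 genes most like each member and 3 neighbours per side. The members and lists were chosen with earlier results of these data known. Alternatives were DESeq2 1.42.0, limma-voom (limma 3.58.1), library-size scaling, other filters, only the groups compared, a replicate block, other gene lengths and leaving out each library. The code was checked on simulated data. Python 3.11.15, matplotlib 3.10.9 and Biopython 1.88 made the figures and alignments.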

Additional observations from a re-analysis of the deposited data

Results flagged for a closer look

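The interaction of genotype and DHT passed edgeR's test for 6 of the named genes and for 3.24% of all genes. Named genes of the lists were picked by their p-values in these comparisons, so the 6 are a selected set and are not to be set against that share. The difference (KO minus WT, log2) was -0.69 for Vcl (adjusted p = 0.00076), -0.69 for Syne1 (adjusted p = 0.0013), -0.34 for Itgb1 (adjusted p = 0.047), -0.64 for Dcaf5 (adjusted p = 0.00066) and -0.75 for Mtr (adjusted p = 5.1e-05). For these 5 genes the rise with DHT in WT was larger than the value in KO. For Ache it was 0.85 (adjusted p = 0.0015): Ache rose with DHT in KO by 0.86 and gave 0.02 in WT. None of the 6 is an alpha-actinin gene. In 48 group values of the members and of the summed sarcomeric level, 0 had a library far from the rest.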

How the results depend on the processing

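Under alternatives to the fit, 246 values of members kept their direction and their side of the threshold. There were 6 exceptions, and where no cause is given the cause was not tested. For ORX in KO the log2 fold change of Actn3 was 0.01 with limma-voom and 0.10 with library-size scaling, in place of -0.01, and for DHT in WT that of Actn1 was -0.04 with library-size scaling, in place of 0.02. The rise of Actn2 in KO with empty implants was 0.64 with only the 2 groups compared, which has fewer samples, and missed the threshold. The difference of the DHT effects on Actn3 passed with DESeq2 (0.41) and with library-size scaling (0.46). Library-size scaling moved the median of all genes for ORX in KO from 0.01 to 0.12, so the values of 0.60 for Actn1 and 0.43 for Actn4 under it are to be read relative to that shift.

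The number of genes called went from 975 to 484 for ORX in KO, from 784 to 498 for DHT in KO and from 722 to 289 for KO against WT with empty implants when only the 2 groups were fitted. With DESeq2 it went from 784 to 1201 for DHT in KO and from 4 to 127 for the interaction with ORX, which limma-voom put at 10. For named genes of the lists, 50 values under alternatives and 267 without 1 library kept their direction and missed the threshold, while 545 and 1803 stayed past it. Of the counts per list, 62 and 226 moved by more than 1.5 times, while 757 and 2699 did not. Calls given in the text that were lost without at least 1 library were, for ORX, Casq2 and Myh1 in both genotypes, Mb, Csf1r and Pdgfra in WT, and Tnnt3, Tcap and Clmn in KO; for DHT, Casq2, Atp2a1 and Pdlim5 in WT, Tnnc2, Tnni2, Tpm3, Myoz1 and Vasp in KO, and Myl1 in both. For KO against WT they were Myf5 in sham, Actg1 and Myl1 in ORX mice, Ldb3, Tnnc2 and Tnnt3 with empty implants and Calcr with DHT. The losses were most frequent for Pdgfra with ORX in WT (17 of 23 libraries), Tnnt3 (16) and Casq2 (15) with ORX in KO, Casq2 with ORX in WT (13), and Myl1 (16 of 22) and Tpm3 (13) with DHT in KO. The count of slow fibre genes was 0 to 1 for ORX in each genotype and 1 to 6 for DHT in KO. The calls of Itgb1 and Macf1, of Pecam1 and Dcn with DHT in WT, and of Tnni2 with ORX in KO were lost with library-size scaling and under no other alternative.

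With the coding length, or the longest transcript, in place of all exons, the share of Actn3 was 95.4% or 95.7% in WT-sham, 96.9% or 97% in WT-ORX, 97.4% or 97.5% in WT-empty and 96.7% or 96.8% in WT-DHT. In KO it was 10.5% or 11% in sham, 14.7% or 15.4% with empty implants, 15.2% or 15.8% with DHT, and 11.3% in ORX mice with the coding length. The summed level, as a percent of WT, was 6.26 or 6 in sham, 4.43 or 4.25 in ORX, 4.78 or 4.59 with empty implants and 6.14 or 5.89 with DHT, and the gain of Actn2 with empty implants was 1.51% of the loss with the coding length. The length alternatives for the gain and the summed level were chosen after seeing the data. These shifts follow from the lengths themselves.

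Leaving out 1 library at a time gave, for ORX in WT, -0.04 to 0.18 for Actn1. For ORX in KO it gave -0.07 to 0.08 for Actn3 and 0.25 to 0.43 for Actn4, which passed without KO-ORX replicate 3. For DHT in WT it gave -0.08 to 0.09 for Actn1 and -0.13 to 0.06 for Actn4, and for DHT in KO -0.10 to 0.03 for Actn3. For KO against WT it gave -0.03 to 0.14 for Actn1 and 0.56 to 0.73 for Actn2 with empty implants, the latter missing the threshold without WT-empty 14KR or 7KR, and -0.02 to 0.14 for Actn4 with DHT. For the interactions it gave -0.01 to 0.11 (ORX) and -0.09 to 0.09 (DHT) for Actn2, and 0.35 to 0.48 for Actn3 with DHT, which passed without KO-empty 33KR. Genes called were 589 to 1116 for ORX in KO, moved by more than 1.5 times without KO-ORX replicate 4 or 5, and 450 to 700 for KO against WT with empty implants, so moved without WT-empty 4KR or 7KR or KO-empty 64KR. For the interaction with ORX they were 2 to 38.

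With the replicate number as a block in gastrocnemius, the value for ORX in WT was 0.42 for Actn3 (adjusted p = 0.0034, edgeR), and those for KO against WT were 0.31 in sham and 0.32 in ORX mice for Actn2 (adjusted p = 0.022 and 0.038). Libraries of the same replicate number were not alike: over 33 pairs the correlation of their deviations lay between -0.15 and 0.19 (median 0.01), so the numbers were not read as pairs. In spinalis no paired analysis was possible because the columns do not carry the replicate numbers of the labels. Counting error was larger for Actn1 and Actn4 than for the sarcomeric members, and 5 or 6 mice a group limit all values.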
